A study of Mus musculus with 6 samples.

Results

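The genes described are 10 mouse genes known from the kidney and the urothelium, followed in organoids of the fallopian tube. The kidney set holds Kap, Umod, Kcnj1, Pvalb, Cys1 and Kcne2, and the urothelium set holds the uroplakins Upk1a, Upk1b, Upk2 and Upk3a. They were taken by symbol, through the RefSeq transcript each probe was designed on, and all 10 had a probe: 11 of the 34566 named probes, which cover 23787 genes. The genes were picked with their values on these arrays in view, so their levels and differences are a description and carry no test. A signal well above background was seen on 1 array or more for 9 of the 10.

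RNA of 6 organoid cultures from fallopian tubes of female mice was hybridised to 6 one-colour arrays, with 1 array for each group. The control held the vector pLKO.1 in organoids of Trp53flox/flox mice, and its labels name no loss of Trp53. The other 5 cultures shared loss of Trp53, the gene of the tumour suppressor p53. One had Trp53 loss alone. Another genotype added Pik3caH1047R, an activating mutant of the catalytic subunit of PI3-kinase, and the last added Apc580D, a mutant allele of Apc, the scaffold that keeps Wnt signalling low. The Pik3ca/Trp53 and the Apc/Trp53 cultures were each measured before inoculation under the skin of an animal and again as organoids grown from what formed there, which was an adenocarcinoma for Pik3ca/Trp53 (tumour-derived) and a cyst for Apc/Trp53 (cyst-derived). The labels used here do not give the animals' age or strain, the host, how Trp53 was lost, or whether a culture is 1 clone. Of the 3 pairs in the study's design, 2 were analysed and the other was not analysed here. The labels give every culture the same serum-free medium, with EGF, Noggin, R-spondin1, Jagged-1, Y27632 and the GSK3 inhibitor CHIR-99021, which turns on Wnt signalling.

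The oviduct epithelium and the kidney tubule both arise from intermediate mesoderm and both depend on the transcription factor Pax8 during development. In the kidney, each segment of the nephron makes its own transporters and secreted proteins: androgen-regulated Kap in the proximal tubule, uromodulin (Umod) and the potassium channel ROMK (Kcnj1) in the thick ascending limb, and the calcium buffer parvalbumin (Pvalb) in the distal convoluted tubule. The urothelium of the bladder and ureter is covered by plaques of uroplakins, in which Upk1a pairs with Upk2 and Upk1b pairs with Upk3a.

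Levels below are log2 signals minus the 75th percentile of the same array, so 0 is a bright probe and each unit is 2-fold. A probe not well above background, by the scanner software's flag, is called dim. The lowest level at which a probe still counted as above background lay between -4.30 and -3.64, and this limit stood in for dim signals wherever a fold is given as "at least". Between 45.4% and 51.0% of all probes were well above background, and copies of 1 probe on an array differed by an SD of 0.0389 to 0.0810. No spot was saturated. The summed level of a gene list is the log2 of the summed scaled signals of all its probes, dim ones included. Its brightest gene can therefore set it. With 1 array a group there is no replicate error, so no difference below has a p-value. The arrays share 1 slide and 1 scan. Trp53 loss and both cultures before inoculation lay in slide row 1, and control and both derived cultures in row 2, so slide row and these contrasts cannot be told apart.

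The probe for Trp53 read 1.46 in control, and it was dim in Trp53 loss (-6.0), in Pik3ca/Trp53 before inoculation (-4.49) and in cyst-derived organoids (-6.12). It was above background but lower than control in tumour-derived organoids (-1.05, 5.67-fold lower) and in Apc/Trp53 before inoculation (-2.99, 21.9-fold lower). Whether this probe lies in the deleted part of Trp53 is not given in the sources used here. The tissue was checked with a list of 9 oviduct and general epithelial genes, and all 9 were above background on all 6 arrays, among them Ovgp1, the oviduct's secreted glycoprotein, at 1.90 to 4.65. Pax8, the shared lineage factor, was above background on all 6 arrays, and its brighter probe read 2.64 to 3.32.

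The RefSeq promoter table of build GRCm38.p6 held a start site for 8 of the 10 genes; Upk1b and Upk2 have no entry in it. The 250 bases before the start are printed for Kcnj1 and for the downstream of the 2 starts of Kcne2, since the levels of these genes ran closest together and these windows share a motif. Capitals mark AGAACA, a core of the site bound by glucocorticoid and mineralocorticoid receptors, on either strand. Coordinates are chr9:32393735-32393984 for Kcnj1 and chr16:92295366-92295615 for Kcne2, both on the plus strand.

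Kcnj1: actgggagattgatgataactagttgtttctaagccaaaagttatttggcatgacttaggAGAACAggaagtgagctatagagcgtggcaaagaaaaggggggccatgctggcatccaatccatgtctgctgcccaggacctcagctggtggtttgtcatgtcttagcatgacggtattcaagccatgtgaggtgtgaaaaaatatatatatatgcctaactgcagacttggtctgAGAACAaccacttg
Kcne2, downstream start: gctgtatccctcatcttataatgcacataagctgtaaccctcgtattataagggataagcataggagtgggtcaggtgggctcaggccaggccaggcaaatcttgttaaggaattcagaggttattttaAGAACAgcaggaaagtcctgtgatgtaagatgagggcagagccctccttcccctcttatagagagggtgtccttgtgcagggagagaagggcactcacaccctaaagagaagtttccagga

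In these windows AGAACA begins 190 and 14 bases before the start of Kcnj1 and 121 bases before the downstream start of Kcne2. It was searched on both strands over 32851 promoters of 27025 genes, 10 of which belong to the 8 genes in the table, and was in 16.1% of all. None of the other 8 promoters, the upstream start of Kcne2 included, held it. The motif of GATA factors, searched as AGATAA, was in 9.99% of all and, among these genes, in Upk3a. None of the 10 promoters held the TCF core CTTTGA (13.8% of all), the longer TCF form CTTTGAT that contains it (3.21%) or an interferon response element (2.98%). The motifs were chosen after the levels had been seen. A match is a description of the letters only.

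Kap, the kidney androgen-regulated protein, was highest on the Pik3ca/Trp53 arrays. It read 4.24 in tumour-derived organoids, 3.25 in Pik3ca/Trp53 before inoculation and -0.49 in control, and it was dim in Trp53 loss (-6.13), in Apc/Trp53 before inoculation (-4.54) and in cyst-derived organoids (-6.36). Both Pik3ca/Trp53 arrays were high, control was in between, and the other 3 were dim. Against control, Kap was 13.3-fold higher before inoculation and 26.5-fold higher in tumour-derived organoids. It was at least 11.2-fold lower in Trp53 loss, at least 14-fold lower in Apc/Trp53 before inoculation and at least 12.5-fold lower in cyst-derived organoids. In bulk RNA such as this, fewer cells of a type and less RNA per cell cannot be told apart. Over the 6 arrays its range was at least 8.54. Of the other genes, the 3 whose centred levels lay nearest to Kap over the 6 arrays were Wfdc18 (root mean square difference 1.80), Phf11a (1.87) and Phf11d (1.90). Wfdc18 read 4.88 and 7.71 on the Pik3ca/Trp53 arrays and between -1.04 and 1.25 on the other 4.

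Umod encodes uromodulin, the protein that thick ascending limb cells release into the urine in largest amount. It read 5.55 in Apc/Trp53 before inoculation, 4.85 in cyst-derived organoids, 3.45 in Trp53 loss, 3.10 in Pik3ca/Trp53 before inoculation and -1.03 in control, and was dim (-6.17) in tumour-derived organoids. The Apc/Trp53 arrays were the highest, and the tumour-derived array was the only one with no measurable signal. Against control, Umod was 96.1-fold higher in Apc/Trp53 before inoculation, 59.3-fold higher in cyst-derived organoids, 22.4-fold higher in Trp53 loss and 17.6-fold higher in Pik3ca/Trp53 before inoculation. In tumour-derived organoids it was at least 7.67-fold lower than control and at least 135-fold lower than before inoculation. Trp53 loss and Pik3ca/Trp53 before inoculation were next to each other in this order, 1.27-fold apart.

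Gp2, which encodes a GPI-anchored glycoprotein related to uromodulin, is the gene next to Umod on chromosome 7. It read 0.86 in Apc/Trp53 before inoculation, 0.14 in cyst-derived organoids, -1.49 in Pik3ca/Trp53 before inoculation and -1.85 in Trp53 loss, and was dim in control (-4.64) and in tumour-derived organoids (-6.19). Gp2 was thus highest on the Apc/Trp53 arrays, as Umod was. On the other side of Umod, Pdilt was above background on 1 array, Apc/Trp53 before inoculation, at -3.07. The look at neighbouring genes was added after the levels had been seen. Nearest to Umod in centred level over the 6 arrays was Lgr5, a Wnt target and stem cell receptor, with a root mean square difference of 0.94, followed by Bex1 (1.48) and Ihh (1.58). Lgr5 read 3.47 in cyst-derived organoids, 2.65 in Apc/Trp53 before inoculation, 1.85 in Trp53 loss, 1.27 in Pik3ca/Trp53 before inoculation, -2.37 in control and -3.69 in tumour-derived organoids.

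Kcnj1, the potassium channel through which the thick ascending limb and collecting duct secrete potassium, was measurable on 2 arrays. It read 2.0 in Apc/Trp53 before inoculation and 1.01 in Trp53 loss, and was dim on the other 4 arrays, at -5.71 to -4.67. Trp53 loss exceeded control by at least 30.0-fold. Kcnj1 was 1.98-fold higher again in Apc/Trp53 before inoculation, at least 25.1-fold lower in Pik3ca/Trp53 before inoculation than in Trp53 loss, and at least 70.3-fold lower in cyst-derived organoids than before inoculation. Its neighbours on chromosome 9, Kcnj5 and Fli1, were dim on all 6 arrays.

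Kcne2, the accessory subunit of potassium channels such as Kcnq1, had much the same order. It read 1.57 in Apc/Trp53 before inoculation, 0.19 in Trp53 loss and -2.47 in control, and was dim in Pik3ca/Trp53 before inoculation (-4.54), tumour-derived (-4.27) and cyst-derived organoids (-5.96). It was 6.34-fold higher in Trp53 loss than in control, 2.61-fold higher again in Apc/Trp53 before inoculation, and at least 52.3-fold lower in cyst-derived organoids than before inoculation. Kcnj1 and Kcne2 were the closest pair among the genes described, with a root mean square difference of centred levels of 0.69 and a Pearson r of 0.97 over 6 arrays, given as a description. Kcnq1, a channel partner of Kcne2, varied little: its brightest probe read 3.39 to 3.80. Fxyd2, the gamma subunit of the sodium pump and abundant in the kidney tubule, was among the 3 nearest genes to both, with differences of 1.18 from Kcnj1 and 0.97 from Kcne2. Fxyd2 read 1.64 in Apc/Trp53 before inoculation and 1.34 in Trp53 loss, and between -3.16 and -1.04 on the other 4 arrays. Slc7a3, an amino acid transporter, was also among the 3 nearest to both (1.26 and 0.97), and the nearest to Kcne2 was Serpinb10 (0.77).

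Pvalb, the calcium buffer of the early distal tubule and of fast muscle and some neurons, was measurable on 2 arrays. It read 0.77 in Apc/Trp53 before inoculation and -3.05 in tumour-derived organoids, and was dim on the other 4, at -5.42 to -4.05. Apc/Trp53 before inoculation stood alone as the high array, at least 27.0-fold above Trp53 loss and at least 30.0-fold above cyst-derived organoids. On that array 5 of 12 skeletal muscle genes were above background, with a summed level of 0.13 against 0.12 to 1.66 over all 6 arrays, and Acta1, Myh1, Myh2 and Myh4 were dim on all 6. The highest summed muscle level was on the tumour-derived array, where Pvalb was just above background and Mb, which encodes myoglobin, read 1.07. Of 6 neuronal genes, 4 were above background in Apc/Trp53 before inoculation, with a summed level of 1.85 against 1.51 to 3.12 over all 6. Slc12a3, the salt transporter that defines the distal convoluted tubule, was dim on all 6. The 3 nearest genes to Pvalb were P2rx3 (0.85), Pcdh19 (0.97) and Slc5a11 (1.00).

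Cys1 encodes cystin, a cilium-associated protein whose loss gives the cpk mouse its cystic kidneys. It was above background on all 6 arrays: 2.80 in Trp53 loss, 1.31 in tumour-derived organoids, 1.05 in Apc/Trp53 before inoculation, -1.01 in control, -1.04 in cyst-derived organoids and -1.55 in Pik3ca/Trp53 before inoculation. Trp53 loss was highest, and control, Pik3ca/Trp53 before inoculation and cyst-derived organoids were low and close together. Cys1 was 14.1-fold higher in Trp53 loss than in control, 7.26-fold higher in tumour-derived organoids than before inoculation, and 4.24-fold lower in cyst-derived organoids than before inoculation. Irs2 (0.73), Abcb1b (0.79) and Guca2b (0.83) were its nearest genes.

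**Figure D1:**
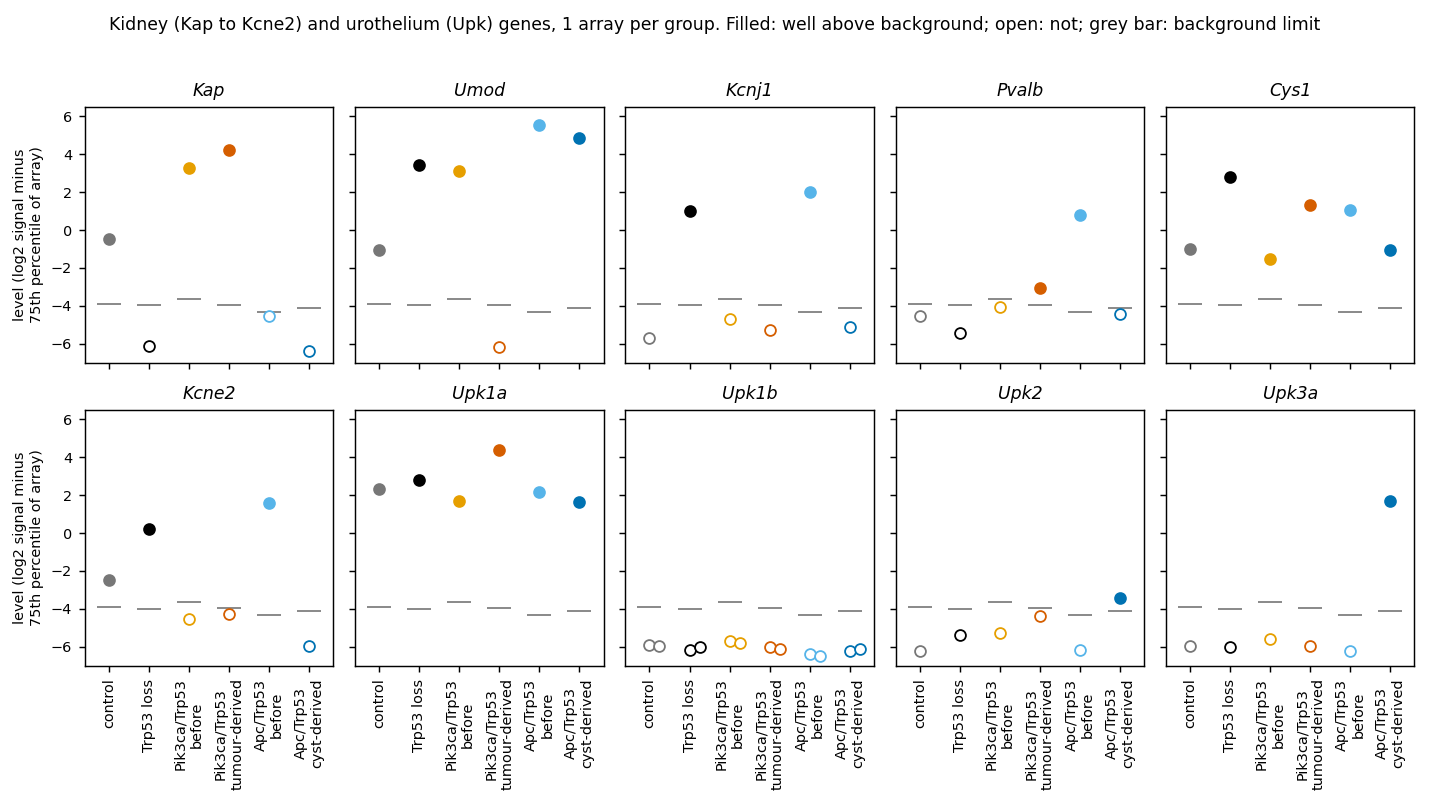
Level of each kidney and urothelium gene (log2 signal minus the array's 75th percentile) on the 6 arrays, 1 array per group; filled points are well above background, open points are dim, and grey bars are each array's background limit. Umod spans -6.17 to 5.55, Kcnj1 and Kcne2 share their 2 highest arrays, and Upk3a is filled on the cyst-derived array only; Upk1b has 2 probes.

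The uroplakins did not move together. Upk1a, the tetraspanin that pairs with Upk2, was above background on all 6 arrays: 4.36 in tumour-derived organoids, 2.80 in Trp53 loss, 2.31 in control, 2.15 in Apc/Trp53 before inoculation, 1.67 in Pik3ca/Trp53 before inoculation and 1.62 in cyst-derived organoids. The tumour-derived array was the high one, 6.43-fold above Pik3ca/Trp53 before inoculation and 4.12-fold above control, and the other 5 lay between 1.62 and 2.80. Upk2, its partner, was dim on 5 arrays and read -3.43 in cyst-derived organoids, near the background limit of -4.14.

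Upk3a, the partner of Upk1b and a component that anchors the plaque, was dim on 5 arrays, at -6.24 to -5.60, and read 1.67 in cyst-derived organoids. That is at least 62.9-fold above Apc/Trp53 before inoculation and at least 47.3-fold above control. Upk1b had 2 probes, and both were dim on all 6 arrays, at -6.47 to -5.70. No array therefore had all 4 uroplakins above background, and the cyst-derived array had 3. The nearest genes to Upk3a were Gm10548, B430306N03Rik and Gm11346, each above background on the cyst-derived array only. This follows from the ranking, which sets dim signals at the background limit and so favours genes measurable on that array alone.

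Upk1a lies next to Zbtb32 on chromosome 7. Zbtb32 read 0.66 in tumour-derived organoids and -1.34 to -0.91 on the other 5 arrays, so the tumour-derived array was the high one for both. On the other side of Upk1a, Cox6b1 was above background on all 6 arrays at 3.88 to 4.35, and read 4.02 in tumour-derived organoids. Measured neighbours of Cys1, Kcne2 and Pvalb had a Pearson r of -0.07 to 0.41 with them over 6 arrays. For Upk3a the values were 0.18 and 0.75, for Kap -0.25 and for Upk2 -0.19. The genes nearest to Upk1a in centred level were Cnn2 (0.24), Neat1 (0.26) and Mfge8 (0.26).

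**Figure D2:**
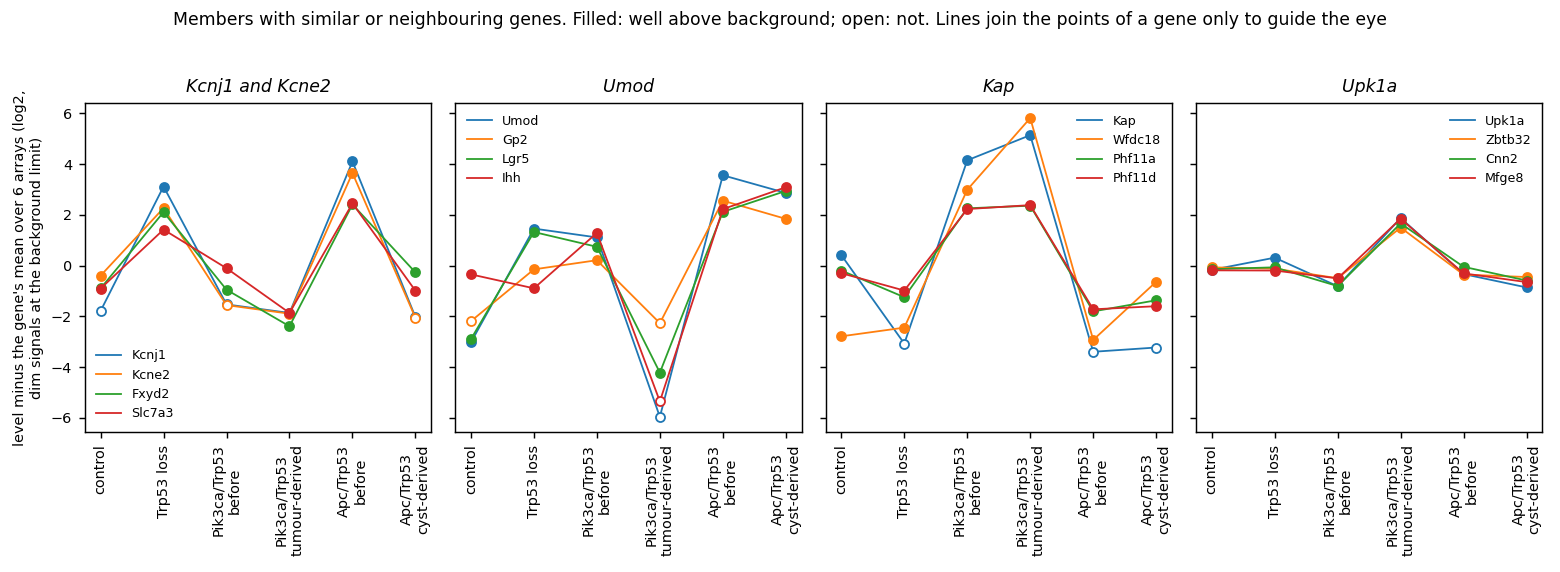
Level of each gene minus its own mean over the 6 arrays (log2, dim signals set at the background limit), for members beside their nearest genes in pattern or, for Gp2 and Zbtb32, their neighbours on the chromosome; filled points are well above background and lines only guide the eye. Kcnj1, Kcne2, Fxyd2 and Slc7a3 peak in Trp53 loss and Apc/Trp53 before inoculation, Umod, Gp2, Lgr5 and Ihh are low in tumour-derived organoids, and Upk1a, Zbtb32, Cnn2 and Mfge8 peak there.

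The comparisons along the study's design are given next as counts. A gene was compared where either array, or both, read its probe above background, and 2-fold means a log2 difference of at least 1 as measured. These contrasts were in view when the genes were picked, so the share of all genes past 2-fold is printed beside each count and nothing is read from it. The Trp53 loss array is used in 3 of the 5 comparisons, and each array before inoculation in 2, so the comparisons are not independent.

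Between Trp53 loss and control, 6 of the 10 genes could be compared. Umod, Kcnj1, Cys1 and Kcne2 were 2-fold higher and Kap was 2-fold lower, while 13.3% of 14361 genes were 2-fold apart (6.17% higher, 7.16% lower). Upk1a was 1.40-fold higher.

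Pik3ca/Trp53 organoids before inoculation were compared with Trp53 loss alone. Kap was at least 149.7-fold higher, Kcnj1 at least 25.1-fold lower, Cys1 20.4-fold lower and Kcne2 at least 14.2-fold lower. Upk1a was 2.18-fold lower and Umod 1.27-fold lower. That makes 5 of 6 compared genes 2-fold apart, where 17.7% of 14237 genes were (9.03% higher, 8.67% lower).

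Apc/Trp53 organoids before inoculation, against Trp53 loss alone, had higher Umod (4.29-fold), Pvalb (at least 27.0-fold) and Kcne2 (2.61-fold) and lower Cys1 (3.37-fold). Kcnj1 was 1.98-fold higher and Upk1a 1.57-fold lower. So 4 of 6 compared genes were 2-fold apart, where 10.7% of 14463 genes were (5.27% higher, 5.39% lower).

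In tumour-derived organoids against Pik3ca/Trp53 before inoculation, 5 of the 10 genes could be compared and 4 were 2-fold apart, where 25.1% of 14727 genes were (14.5% higher, 10.6% lower). Cys1 was 7.26-fold and Upk1a 6.43-fold higher, and Umod was at least 135-fold lower. Pvalb passed the line at 1.00 on the log2 scale, but its signal before inoculation was dim and the bound is at least 1.5-fold. Kap was 1.99-fold higher. Markers of other cell types moved with this contrast. Of 6 adipose genes, 4 were above background in tumour-derived organoids and 2 before, with summed levels of 2.97 and -0.74. Of the 4 adipose genes compared, 2 were 2-fold higher and 1 lower. The higher ones were Fabp4 (1.42 in tumour-derived organoids, mean of 2 probes) and Cidec (-0.18), both dim before inoculation. The lower one was Plin4 (-3.85 in tumour-derived organoids and -2.46 before). Of 7 fibroblast genes, 3 were above background in tumour-derived organoids and 1 before, with summed levels of 0.45 and -1.42. Adipoq and Plin1, which define fat cells, and the fibroblast genes Col3a1, Dcn and Lum were dim on all 6 arrays. Summed levels in tumour-derived organoids and before were 1.66 and 0.23 for muscle and 6.24 and 4.67 for mesothelium. They were 4.97 and 4.34 for leukocyte, 2.31 and 1.51 for neuronal, and -1.26 and -0.94 for endothelial genes. The part of these cell types in the differences of this pair was not tested.

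In cyst-derived organoids against Apc/Trp53 before inoculation, 8 of the 10 genes could be compared and 6 were 2-fold apart, where 19.3% of 14888 genes were (11.1% higher, 8.23% lower). Upk3a was at least 62.9-fold higher and Upk2 at least 1.84-fold. Kcnj1, Kcne2 and Pvalb were at least 70.3-fold, 52.3-fold and 30.0-fold lower, and Cys1 was 4.24-fold lower. Umod and Upk1a were 1.62-fold and 1.44-fold lower. Kcnj1, Kcne2 and Pvalb were thus dim in cyst-derived organoids, while Umod read 4.85. Of 6 leukocyte genes, 5 were above background in cyst-derived organoids and 4 before inoculation, with summed levels of 3.44 and 4.21. Ptprc, the leukocyte marker CD45, read -2.54 in cyst-derived organoids on 1 of its 2 probes. That probe was dim on the other 5 arrays, and the second probe was dim on all 6. Cd68, another gene of this list, went the other way, at 0.01 in cyst-derived organoids and 2.21 before inoculation. Other lists moved too. Of 7 fibroblast genes, 2 were above background in cyst-derived organoids and 0 before, with summed levels of -0.61 and -2.38. The summed muscle level was 1.16 against 0.13, with 6 and 5 of 12 above background. All 6 neuronal genes were above background against 4, with summed levels of 2.44 and 1.85. Of 4 mesothelial genes, 1 was above background against 2, with summed levels of 2.29 and 4.77. A single bright gene, at 2.28 and 4.75, made up nearly all of these 2 mesothelial sums. Of 6 adipose genes, 2 were above background against 3, with summed levels of -1.29 and -0.05. The part of these cell types in the differences was not tested.

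**Figure D3:**
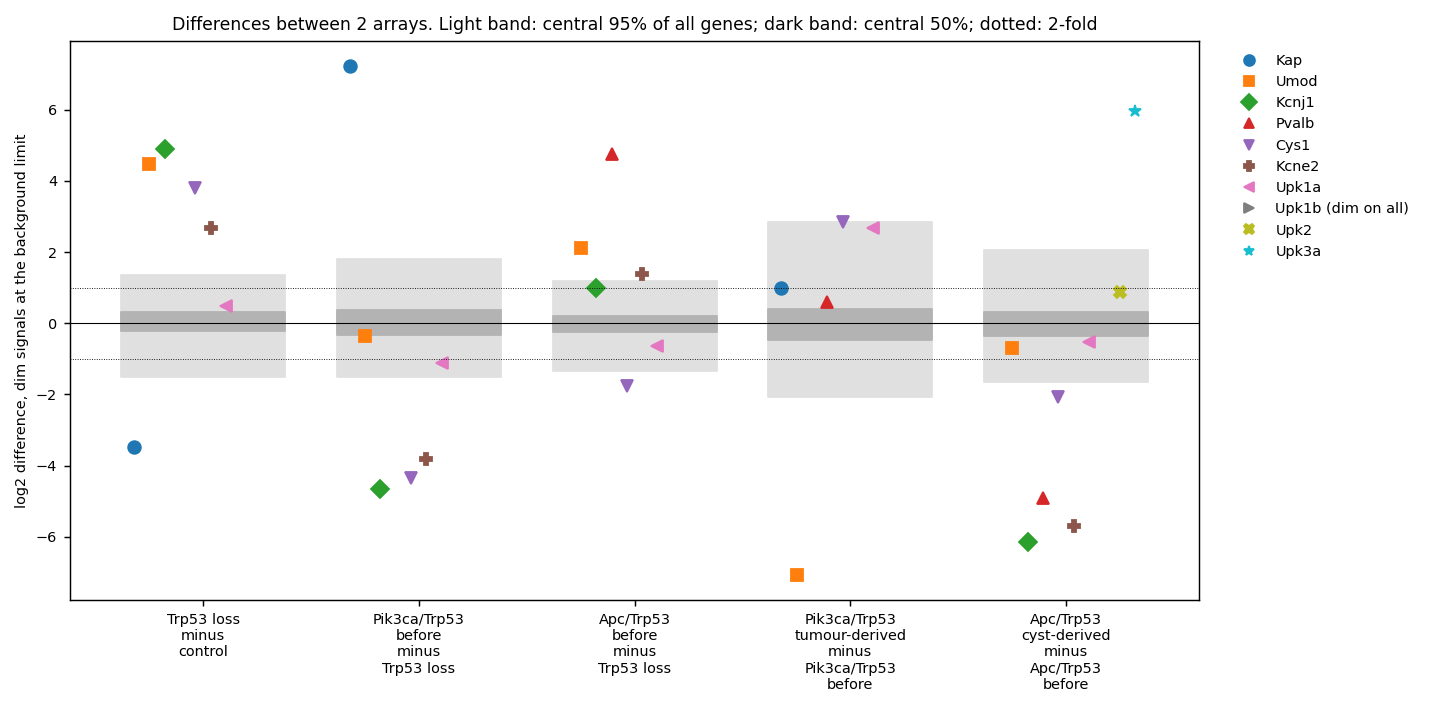
Log2 difference between 2 arrays for each gene that could be compared (dim signals set at the background limit, so such differences are lower bounds), in the 5 comparisons; the light and dark bands hold the central 95% and 50% of all genes and dotted lines mark 2-fold. Kap lies at 7.23 in Pik3ca/Trp53 before inoculation, Umod at -7.07 in tumour-derived organoids, and Kcnj1 at -6.14 and Upk3a at 5.97 in cyst-derived organoids, all outside the light bands.

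Other genes of the nephron were measurable to different degrees by segment. Of 20 proximal tubule genes, 10 were dim on all 6 arrays, among them Slc34a1, the phosphate transporter, and 3 to 6 were above background on any 1 array. Lrp2, the endocytic receptor megalin, was above background in Pik3ca/Trp53 before inoculation only, on 2 of its 3 probes (-3.20, near the limit of -3.64). Kap was also high on that array, but Lrp2 was dim (-6.23) in tumour-derived organoids, where Kap was highest. Aqp1, a water channel, was on all 6 arrays at -0.80 to 2.45 and was highest in Trp53 loss. Slc27a2, a fatty acid transporter, read 0.39 to 1.90 on 5 arrays and was dim (-4.09) in tumour-derived organoids, the array where Umod was dim.

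Of 9 thick ascending limb genes besides Umod and Kcnj1, 4 were dim on all 6 arrays. Slc12a1, the salt transporter that defines this segment, was above background in control only (-2.79), where Umod was low and Kcnj1 dim. Cldn10, a claudin not limited to this segment, was high throughout, at 4.86 to 6.33. Cldn16 and Bsnd were dim on all 6.

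Of 7 distal convoluted tubule genes, 3 or 4 were above background on each array. Calb1, the calcium buffer calbindin, read 2.29 in Pik3ca/Trp53 before inoculation and 2.75 in cyst-derived organoids as the mean of 2 probes. Its brighter probe read 5.48 and 5.92 on these arrays and 3.66 in Apc/Trp53 before inoculation. Calb1 thus did not follow Pvalb. Of 15 collecting duct genes, 2 were dim on all 6 arrays and 8 to 11 were above background on any 1. Foxi1, the regulator of intercalated cells, read 4.51 in tumour-derived organoids and was dim on the other 5. Other genes of this list did not follow it. On that array Atp6v1g3 was dim (-5.93), and the brighter probe of Atp6v0d2 read -3.63, against 1.61 in control. Slc26a4 read 3.47 there and 3.50 before inoculation, and Slc4a1 was dim on all 6 arrays. Of 11 collecting duct genes compared between cyst-derived organoids and Apc/Trp53 before inoculation, 6 were 2-fold lower and 0 higher, where 8.23% of all genes were lower and 11.1% higher. With dim signals at the background limit 4 were lower, and the median moved from -1.60 to -0.56. Among 6 podocyte genes, 3 to 5 were above background on each array. Nphs1 was above background in tumour-derived organoids only, on 1 of its 2 probes (-0.97). Its other probe was dim on all 6 arrays, at -6.14 in tumour-derived organoids.

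Of 13 cystic kidney disease genes other than Cys1, 12 or 13 were above background on each array. Bicc1 was the most variable, dim in control (-6.03) and in Pik3ca/Trp53 before inoculation (-4.57) and -0.51 in Trp53 loss, the array where Cys1 was also highest. Pkhd1, which encodes fibrocystin, read -3.26 in control and -0.44 in cyst-derived organoids. A list of 17 genes held others of the Kcnj and Kcne families and partners of Kcne2. Among them, Kcne3 was above background on all 6 arrays at 2.67 to 4.64. Kcnj8 read -0.90 in cyst-derived organoids and was dim on the other 5. Of 18 transcription factors of the kidney and Mullerian duct, 8 to 10 were above background on each array. Lhx1 and Six2, which act in the forming nephron, were dim on all 6. The 6 steroid hormone receptor genes were above background on all 6 arrays. Of 5 endothelial genes, 1 to 3 were above background on an array, and of 4 mesothelial genes 1 to 3.

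Of 18 urothelial genes besides the 4 uroplakins described, 16 were above background in tumour-derived organoids and 12 to 15 on each other array. The 18 include 2 more genes with uroplakin names, Upk3b and Upk3bl. Upk3bl was above background on all 6 arrays. Its brighter probe read 5.02 in control, 4.21 in tumour-derived organoids, 1.48 in Pik3ca/Trp53 before inoculation and 0.29 in cyst-derived organoids. Upk3b was dim in Pik3ca/Trp53 before inoculation (-4.50) and in cyst-derived organoids (-6.11) only. Between tumour-derived organoids and Pik3ca/Trp53 before inoculation, 12 of 16 compared were 2-fold higher and 0 lower, where 14.5% of all genes were higher and 10.6% lower. The median was 2.30 against -0.06 over all genes. With dim signals at the background limit, 11 were higher and the median was 1.57 against -0.07. Krt20, the keratin of umbrella cells, read 6.37 there against 0.84 before inoculation. The basal keratins Krt5 and Krt14 read 4.06 and 5.52, against dim (-4.74) and -2.36. Upk1a shared this array as its highest, but many of these genes are also made by other stratified epithelia. In cyst-derived organoids, where Upk3a was measurable, 7 of 15 compared urothelial genes were 2-fold lower than before inoculation and 2 higher, where 8.23% and 11.1% of all genes were. Krt20 read -1.70, its lowest level, Krt5 was dim, and Shh and Snx31 were dim on all 6 arrays.

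**Figure D4:**
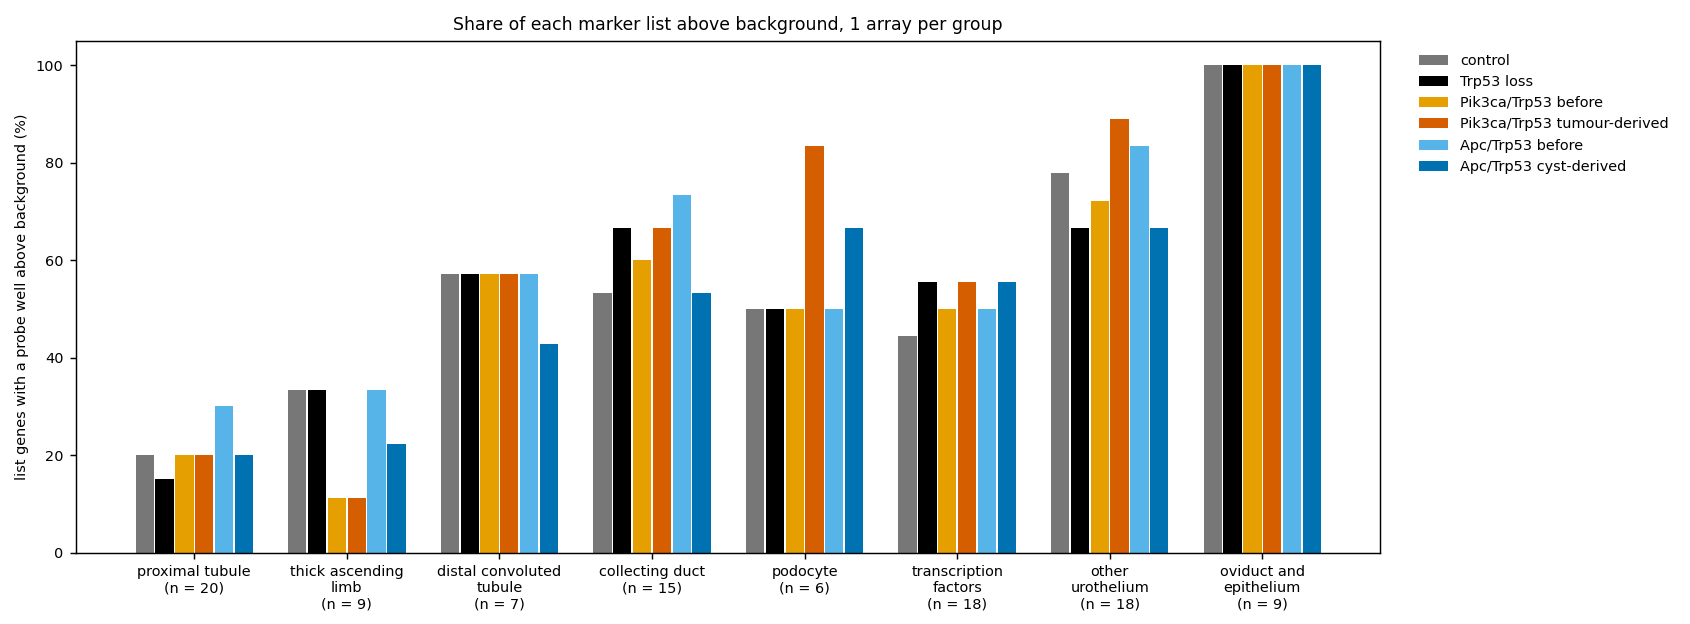
Share of the genes of each marker list that were well above background (percent of the genes with a probe, n under each name), 1 bar for each array. Oviduct and epithelial genes reach 9 of 9 on every array, proximal tubule genes 3 to 6 of 20 and thick ascending limb genes 1 to 3 of 9.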

How the data were processed

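RNA was labelled with Cy3 and hybridised to 6 Agilent arrays, per the labels' protocols. The deposited intensity of each spot (gProcessedSignal, background-subtracted) was made with Agilent Feature Extraction, version 11.0.1.1 per the submitters' processing notes. A value table of 2047 probes, deposited by the authors in log2, covers 5 probes of the genes described; differences between its columns equal those of the scanner values up to a constant, and it was used as an alternative only. The level of its zero stays unknown; its column medians were 0.03, -0.02, 0.15, -0.05, -0.32 and -0.20.

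Control spots and outlier spots were left out, spots of a probe were averaged, and log2 intensity was scaled to each array's 75th percentile over 56605 probes with Python 3.11.15. A gene's difference is the mean over its probes above background on at least 1 array of the comparison. With 1 array a group no test was possible, and precision is limited by how few arrays there are. Between probes of a gene, differences had a median SD of 0.11 to 0.19. Named genes were all members, their 3 nearest genes in centred level, and up to 4 genes of widest range per list of 18 lists. Members and lists were chosen with earlier results of these data known. For normexp (limma 3.58.1, offset 50) the median spot signal was used, because the scanner tables used here have no mean signal column. The difference script was tested on simulated data. Some of the genes named by these rules, and 2 of the 7 promoter motifs searched, 1 of them with matches among these genes, are not reported here. The array's genome build is not given in the sources used here.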

Additional observations from a re-analysis of the deposited data

Results flagged for a closer look

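Cys1 differed in opposite directions in the 2 pairs of cultures measured before and after growth under the skin: it was 2.86 higher on the log2 scale in tumour-derived than in Pik3ca/Trp53 organoids before inoculation, and the difference was -2.09 in cyst-derived against Apc/Trp53 organoids before inoculation. Each pair has 1 array on each side, and the difference between the pairs was not tested.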

How the results depend on the processing

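No paired analysis was possible because each group has 1 array and the labels give no replicate numbers, and for the same reason no replicate could be left out. Of 31 differences of the genes described, 24 were 2-fold. All 24 kept their direction under scaling by the median, the 75th percentile over probes above background on all arrays, quantile normalization, normexp, dim signals at the limit, all probes and the brightest probe, and 22 to 24 stayed 2-fold. The settings with all probes and with the brightest probe could not change these values, since each gene compared had 1 probe. The deposited value table kept 17 of 17. Its differences equal those of the scanner values up to a constant, so it is not a separate check. With control in place of the source culture as reference, 15 of 16 kept their direction and 12 stayed 2-fold; Cys1 moved from -2.09 to -0.02 in cyst-derived organoids and from -4.35 to -0.54 in Pik3ca/Trp53 before inoculation, and in Apc/Trp53 before inoculation it turned from -1.75 to 2.06, since Trp53 loss lies above both. In the order Trp53 loss, Pik3ca/Trp53 before, Apc/Trp53 before, tumour-derived and cyst-derived, genes 2-fold apart numbered 1914, 2520, 1542, 3696 and 2874; with normexp they numbered 646, 1082, 496, 1894 and 1216, and with only probes above background on both arrays 1006, 1544, 880, 2174 and 1795. That filter left 3 members 2-fold apart in Trp53 loss, 2 in Pik3ca/Trp53 before, 2 in tumour-derived and 1 in cyst-derived organoids, since it removes genes that were dim on 1 array. Scaling by the median moved the median of all genes to 0.23 in Trp53 loss, -0.18 in tumour-derived and -0.37 in cyst-derived organoids, and the share of 2-fold genes that were higher from 46.3% to 56.9% in Trp53 loss and from 57.3% to 37.5% in cyst-derived organoids. Differences that rest on a dim signal are bounds.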
